A study of Homo sapiens with 15 samples.

Results

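A549 cells exposed to the fine particulate matter (PM2.5) sample coded CQWIN were compared with A549 cells given dimethyl sulfoxide (DMSO), the solvent control. The comparison rests on the 3 CQWIN libraries and the 3 DMSO libraries, 6 of the 15 libraries of the series, chosen by their labels. A549 is an established human lung adenocarcinoma line, labelled here as type II alveolar epithelial cells. CQWIN cells received PM2.5 at 100 µg/mL and DMSO cells an equal volume of DMSO, both for 24 h before RNA extraction. The other 9 libraries came from cells given PM2.5 coded CDSUM, CDWIN or CQSUM at the same dose and time, with 3 libraries each. The labels do not spell out the codes. Nor do they state that libraries of 1 group were grown as separate cultures, and p-values therefore describe the spread between libraries, which may be technical. In bulk RNA, fewer cells of a kind and less RNA per cell cannot be told apart.

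Combustion particles carry polycyclic aromatic hydrocarbons. These bind the aryl hydrocarbon receptor (AHR), a transcription factor that switches on cytochrome P450 enzymes of the CYP1 family and its own repressors. Lung epithelial cells also answer particles with chemokines and with antioxidant enzymes controlled by NRF2. Cells sense sterols through the INSIG and SCAP proteins, which hold the SREBP transcription factors in the endoplasmic reticulum. When sterols fall, SREBP moves to the nucleus and raises the genes of cholesterol and fatty acid synthesis.

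Of 58735 genes in the deposited table, 29725 had at least 1 read in a library and 15565 had enough reads to be tested. Total counts ran from 17583532 to 19143965 reads per CQWIN library and from 18362354 to 18992617 per DMSO library. The 3 CQWIN libraries did not group tightly. The first principal component of log expression held 37.9% of the variance. On it CQWIN 1 lay at 33.5, CQWIN 2 at −19.1 and CQWIN 3 at −50.5. The DMSO libraries ran from −64.8 to −34.1 there, so CQWIN 3 lay inside the DMSO range on this component. The second component held 22.3% of the variance and kept CQWIN, at −35.7 to −18.6, apart from DMSO, at 22.9 to 48.6. It did not set all exposed libraries apart from DMSO. CDSUM lay at 28.3 to 34.7, inside the DMSO range, and CDWIN 2 at 14.4. The slope of expression on gene GC content was 0.158 to 0.344 log2 units per 10 percentage points in DMSO and −0.207 to −0.0971 in CQWIN. It was also positive in CDSUM, at 0.136 to 0.203, and in CDWIN 2, at 0.126, and negative in the remaining PM2.5 libraries. Per doubling of transcript length, DMSO libraries changed by 0.124 to 0.239 log2 units. The same slope was −0.122 in CQWIN 1, 0.0446 in CQWIN 2 and 0.218 in CQWIN 3. What produced these slopes was not tested, and values with both trends removed are given beside many of the results.

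The expression level in all that follows is TMM-scaled CPM, read counts relative to library size after scaling by the trimmed mean of M-values. Of 12 alveolar type II markers, 4 reached 1 CPM in at least 1 of the 6 libraries, namely ABCA3, NAPSA, LPCAT1 and ETV5, and the surfactant genes SFTPA1 and SFTPA2 were at 0 in all 6 libraries. All 6 epithelial markers were present, with a summed level of 6483 to 8276 CPM in CQWIN and 12836 to 16070 CPM in DMSO. KRT8, KRT7 and KRT18 made up most of this sum, with CQWIN means of 3939, 1567 and 1218 CPM against 7592, 3917 and 2363. KRT19 and EPCAM had higher means in CQWIN, at 435 against 254 and 1.79 against 0.923 CPM. CDH1 was at 18.3 against 23.8 CPM. Of 12 leukocyte markers, only CD14 and ITGAM reached 1 CPM, and PTPRC, CD3E, CD3D, MS4A1 and FCGR3A were at 0. The summed leukocyte level was 9.32 to 16.4 CPM in CQWIN and 10.2 to 13.2 CPM in DMSO. Of 12 fibroblast and endothelial markers, 5 reached 1 CPM, of which LUM, PDGFRA and PECAM1 did so in CQWIN 1 alone, COL1A2, VWF and KDR were at 0, and the sum was 9.71 to 11 CPM in CQWIN and 13.0 to 19.9 CPM in DMSO. COL1A1 made up most of the DMSO sum, with a mean of 10.7 CPM against 3.88 in CQWIN.

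CQWIN exposure went with changes in 4264 genes, 27.4% of those tested. Of these, 1804 genes (11.6%) were higher and 2460 (15.8%) lower, at a Benjamini-Hochberg adjusted p under 0.05 by edgeR's quasi-likelihood test. At least 2-fold changes made up 505 of the higher and 663 of the lower calls. The median log2 fold change over all genes tested was 0.02. The CQWIN and DMSO libraries did not overlap for 1520 of the higher and 2358 of the lower genes, and for 6041 of all genes tested, 38.8%. Genes called higher had a median GC content of 43.0% and genes called lower one of 58.4%, against 48.9% over all genes tested.

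The balance of higher and lower genes moved with the scaling and with single libraries. With the size factors of DESeq2 it was 2176 higher and 2108 lower, so the higher share rose from 42.3% to 50.8%. With DESeq2 itself the share was 51.4%, with the length trend removed 49.3%, and with the GC and length trends removed 52.4%. The last of these called 1237 higher and 1125 lower genes. It kept only 1683 of the 4264 calls as reported, 817 of the 1804 higher and 866 of the 2460 lower. Without CQWIN 3 there were 3866 higher and 2236 lower genes, without CQWIN 2 there were 2204 and 1246, and without CQWIN 1 there were 864 and 1647. Leaving out DMSO 1, DMSO 2 or DMSO 3 gave 906, 1233 or 1158 higher genes and 1751, 1797 or 2051 lower genes. Across all 14 alternatives 976 genes kept their call, 416 higher and 560 lower. Unless another number is given, each gene said below to have risen or fallen is one of these 976.

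**Figure D1:**
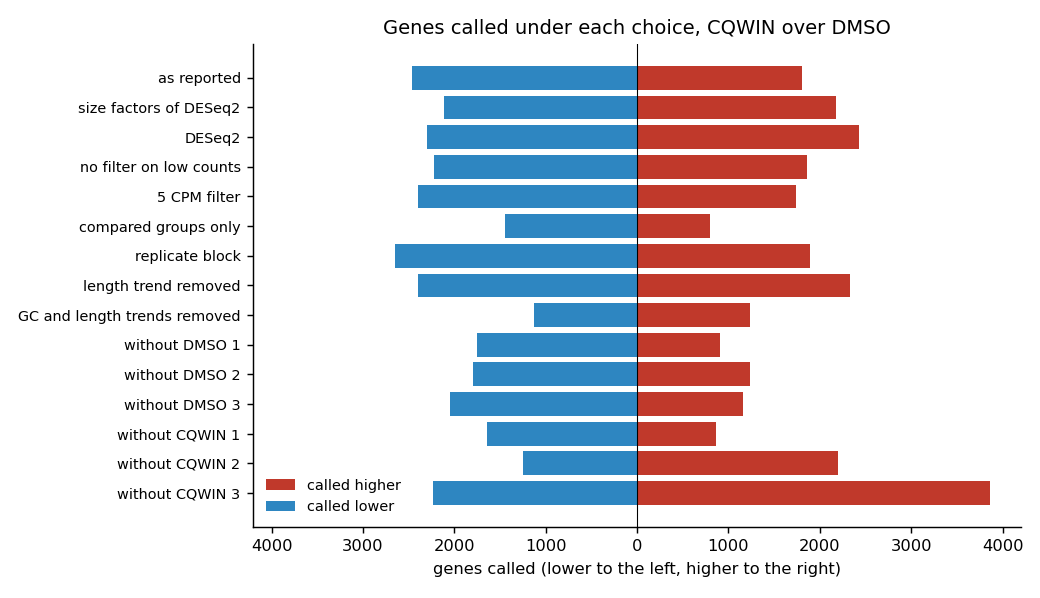
Number of genes called higher (right) and lower (left) in CQWIN over DMSO at an adjusted p under 0.05, as reported and under each of the 14 alternatives. Leaving out CQWIN 3 gave 3866 higher genes and leaving out CQWIN 1 gave 864, against 1804 as reported.

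The largest rise among genes of at least 5 CPM was that of CYP1A1 (chr15:74719542-74725610, minus strand, GRCh38), the cytochrome P450 that oxidises polycyclic aromatic hydrocarbons. CYP1A1 stood at 21.8, 7.39 and 20.0 CPM in CQWIN 1, 2 and 3 and at 0.80, 0.534 and 0.145 CPM in the DMSO libraries. All 3 CQWIN libraries lay far above DMSO, with CQWIN 2 the lowest. The log2 fold change was 5.05 ± 0.45 (SE), 33.1-fold, with an adjusted p of 1.85e-06. The largest fall was that of ID4 (chr6:19837386-19840684, plus strand), an inhibitor of basic helix-loop-helix transcription factors. ID4 read 0.452, 0.608 and 0.572 CPM in CQWIN and 16.0, 13.0 and 11.4 CPM in DMSO. Its log2 fold change was −4.61 ± 0.39, 24.4-fold lower, with an adjusted p of 6.85e-07. The largest changes here and below were picked only among called protein-coding genes whose CQWIN and DMSO libraries did not overlap.

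The other genes of the 12 largest rises were SLC16A6 (log2 3.57), DHRS9 (3.21), BOLA2B (3.15), INSIG1 (3.14), ANXA10 (3.12), FGFBP1 (2.95), IL1B (2.93), GREM1 (2.84), TIPARP (2.82), CYP1B1 (2.65) and PLIN2 (2.54). BOLA2B has a near-identical copy in the genome, and its rise rested on CQWIN 3, at 87.3 CPM against 6.32 and 4.81 in CQWIN 1 and 2. Without that library its log2 fold change was 0.77 and no longer passed, and it kept its call in 7 of 14 alternatives. The other genes of the 12 largest falls were NPTX1 (log2 −3.66), EDN2 (−3.25), SUSD2 (−3.05), SAMD11 (−2.86), FGFR3 (−2.50), ANKRD2 (−2.48), AXIN2 (−2.47), FSTL4 (−2.44), ID2 (−2.35), ATOH8 (−2.30) and CPLX2 (−2.24). Among the latter, CPLX2, which encodes the synaptic vesicle protein complexin 2, was the most abundant, falling from 2088 ± 305 CPM (SD, n = 3) to 441 ± 174.

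**Figure D2:**
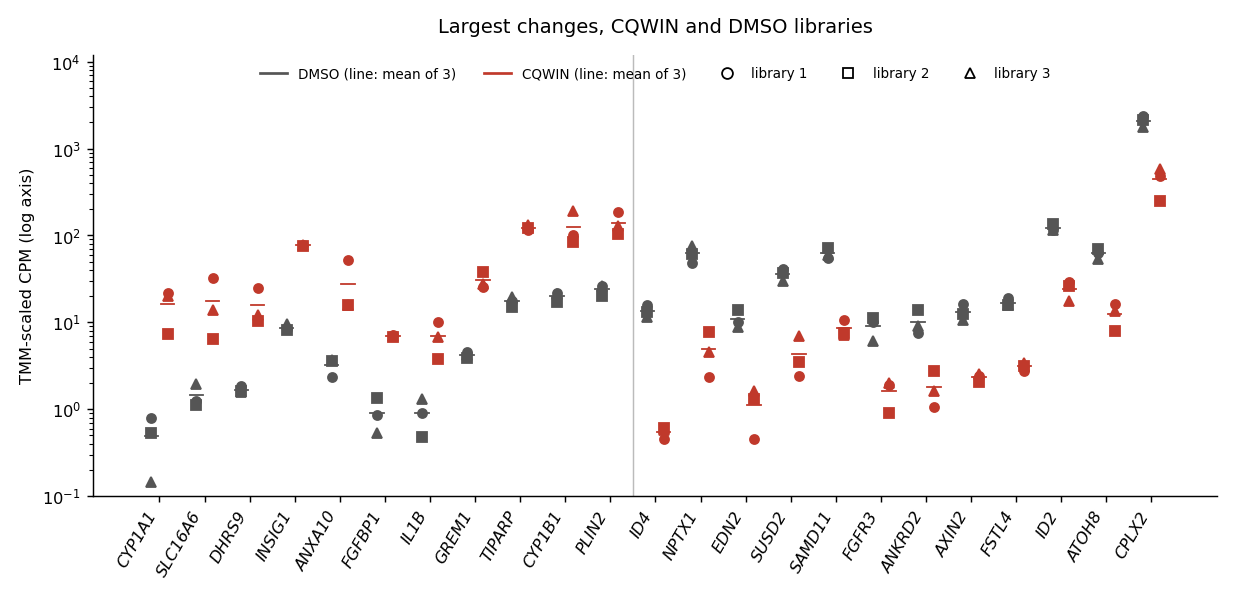
TMM-scaled CPM (log axis) of the genes with the largest rises (left of the line) and falls (right) in the 3 DMSO and 3 CQWIN libraries, with lines at the means and without BOLA2B. Only genes without overlap between the CQWIN and DMSO libraries could enter this ranking. CYP1A1 lies between 7.39 and 21.8 CPM in CQWIN and between 0.145 and 0.80 in DMSO.

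Of 7 AHR target genes tested, 4 rose, none fell, and the median log2 fold change was 0.75. The other risers beside CYP1A1 were CYP1B1, TIPARP and NQO1. TIPARP, a member of the poly(ADP-ribose) polymerase family that AHR induces and that represses AHR in turn, measured 115, 121 and 133 CPM in CQWIN against 17.6, 14.9 and 19.7 in DMSO. Every CQWIN library was far above every DMSO library, and the log2 fold change was 2.82 ± 0.20 with an adjusted p of 1.18e-07. CYP1B1, a further hydrocarbon-oxidising cytochrome, measured 102, 85.1 and 191 CPM against 21.9, 17.1 and 21.0, with CQWIN 3 the highest (log2 2.65 ± 0.24, adjusted p 1.97e-06).

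The remaining AHR targets varied more. NQO1, a quinone reductase shared with the NRF2 pathway, measured 6049 CPM in CQWIN 1 but 3052 and 2864 in CQWIN 2 and 3, against 2188 to 2622 in DMSO. Its log2 fold change of 0.75 ± 0.23 (adjusted p 0.0227) passed in 9 of 14 alternatives and was 0.31 without CQWIN 1. AHRR, the AHR repressor, measured 6.66, 2.23 and 10.7 CPM against 3.52 to 4.75, an overlap, and its log2 value of 0.65 ± 0.36 did not pass (adjusted p 0.19). It did pass with the GC and length trends removed (1.17) and without CQWIN 2 (1.20). ALDH3A1, an aldehyde dehydrogenase that is very abundant in these cells, stayed at 3022 ± 890 CPM against 3179 ± 558 (log2 −0.07, adjusted p 0.835). AHR itself was at 5.77 ± 1.90 against 8.83 ± 1.94 CPM and did not pass (log2 −0.61, adjusted p 0.0773).

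The letters GCGTG are the core of the xenobiotic response element that AHR binds with its partner ARNT. The 250 bases before the RefSeq start of CYP1A1 and before 1 of 3 RefSeq starts of TIPARP (GRCh38.p14) are printed because these genes rose most clearly, with the core or its reverse complement CACGC in capitals.
CYP1A1 (chr15:74725529-74725778, minus strand): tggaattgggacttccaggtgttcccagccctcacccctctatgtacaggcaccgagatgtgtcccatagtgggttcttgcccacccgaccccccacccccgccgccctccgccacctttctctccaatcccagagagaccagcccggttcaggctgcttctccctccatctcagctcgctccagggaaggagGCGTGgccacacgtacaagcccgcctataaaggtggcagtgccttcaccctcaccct
TIPARP (chr3:156674340-156674589, plus strand): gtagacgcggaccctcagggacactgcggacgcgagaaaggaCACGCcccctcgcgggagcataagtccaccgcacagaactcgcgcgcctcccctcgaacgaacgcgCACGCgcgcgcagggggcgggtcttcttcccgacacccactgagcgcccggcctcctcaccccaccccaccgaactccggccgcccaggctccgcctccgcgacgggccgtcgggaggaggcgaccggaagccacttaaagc
The core begins 57 bases before the CYP1A1 start and 208 and 142 bases before the TIPARP start. GCGTG on either strand is common: it lies in 48.2% of 15673 promoters of tested genes, taken from 250 bases before to 50 after the start, in 37.7% of 470 promoters of genes called at least 2-fold higher and in 49.5% of 639 promoters of genes called at least 2-fold lower. The median GC content of these 3 sets was 64.7%, 59.3% and 69.0%.

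Genes of cholesterol synthesis rose nearly as a whole. Of the 22 genes tested, 19 rose and none fell, with a median log2 fold change of 1.13. The count stayed between 19 and 21 and the median between 1.06 and 1.33 in all 14 alternatives. HMGCS1, the synthase that makes HMG-CoA, measured 123, 98.7 and 88.5 CPM in CQWIN against 27.6, 26.6 and 30.2 in DMSO (log2 1.88 ± 0.19, adjusted p 5.60e-06). The 3 CQWIN libraries lay together, well above DMSO.

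Later steps moved in the same direction. IDI1, which isomerises isopentenyl diphosphate, rose by 1.99 ± 0.19 on the log2 scale, and FDFT1, the squalene synthase, by 1.71 ± 0.17, from 123 ± 14.3 to 403 ± 103 CPM. SQLE, the squalene epoxidase, was the most even of these, with 107, 115 and 105 CPM in CQWIN against 51.2, 48.2 and 52.8 in DMSO (log2 1.10 ± 0.13, adjusted p 3.22e-05). MSMO1, a methylsterol oxidase, had the largest change of the pathway, with 154, 98.9 and 91.6 CPM against 21.3, 21.7 and 21.4 (log2 2.42 ± 0.19, adjusted p 3.96e-07). GGPS1, of the branch towards geranylgeranyl groups, rose by 0.91 and lost its call in 1 alternative.

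The 3 genes of the pathway that did not pass were PMVK, TM7SF2 and LBR. PMVK, phosphomevalonate kinase, measured 73.8 ± 18.0 CPM in CQWIN and 71.9 ± 10.8 in DMSO (log2 0.04, adjusted p 0.903). TM7SF2 and LBR encode enzymes for the same sterol reductase step. TM7SF2 measured 35.2 ± 2.62 against 26.2 ± 3.39 CPM, without overlap (log2 0.43, adjusted p 0.0863), and LBR 61.9 ± 7.15 against 55.1 ± 6.76 (log2 0.17, adjusted p 0.49).

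**Figure D3:**
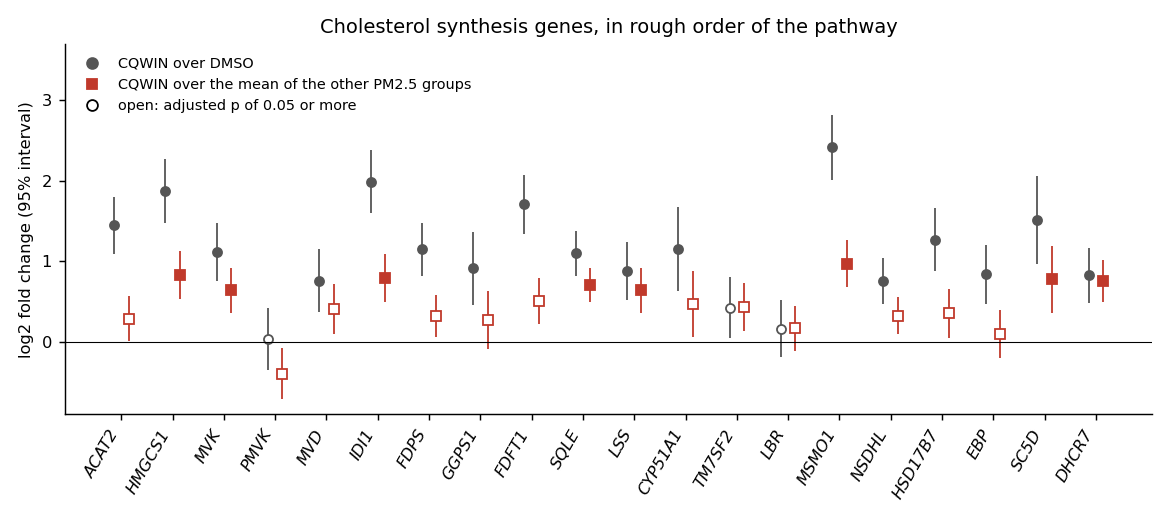
Log2 fold change with its 95% interval for 20 of the 22 cholesterol synthesis genes, for CQWIN over DMSO (circles) and for CQWIN over the mean of the other PM2.5 groups (squares), with open symbols at an adjusted p of 0.05 or more. Against DMSO 17 of the 20 genes shown are filled and MSMO1 is highest at 2.42.

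Sterol sensing, uptake and efflux genes followed, with 11 of 18 higher, 1 lower and a median of 0.70. INSIG1 (chr7:155297776-155310235, plus strand), the sterol sensor that retains SCAP and is itself an SREBP target, measured 76.7, 75.2 and 78.3 CPM in CQWIN and 8.5, 8.18 and 9.51 CPM in DMSO. These were some of the most even libraries of any large change, and the log2 fold change was 3.14 ± 0.17, 8.79-fold, with an adjusted p of 4.17e-09. STARD4, a sterol transport protein, rose from 2.05 ± 0.124 to 10.4 ± 0.937 CPM (log2 2.34 ± 0.25). LPIN1, a phosphatidate phosphatase, rose by 1.27 ± 0.19. The gene called lower was SCAP, the escort of SREBP, at 49.2 ± 2.12 against 92.2 ± 12.2 CPM (log2 −0.90 ± 0.16). With the GC and length trends removed it no longer passed (−0.24).

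SREBF2 and SREBF1 encode the SREBP factors. SREBF2 measured 75.4, 71.4 and 121 CPM in CQWIN and 52.9, 58.6 and 52.9 in DMSO, with CQWIN 3 the highest and no overlap, and it rose by 0.71 ± 0.19 (adjusted p 0.00998). SREBF1 was at 114 ± 14.1 against 138 ± 9.30 CPM and did not pass (log2 −0.27, adjusted p 0.208). It rose by 0.43 (adjusted p 0.026) with the GC and length trends removed. SREBF2 holds a sterol regulatory element, to which SREBP binds, shortly before its start. The letters TCACNCCAC for this element were added after the values had been seen and are shown in capitals.
SREBF2 (chr22:41832855-41833104, plus strand, GRCh38.p14, RefSeq): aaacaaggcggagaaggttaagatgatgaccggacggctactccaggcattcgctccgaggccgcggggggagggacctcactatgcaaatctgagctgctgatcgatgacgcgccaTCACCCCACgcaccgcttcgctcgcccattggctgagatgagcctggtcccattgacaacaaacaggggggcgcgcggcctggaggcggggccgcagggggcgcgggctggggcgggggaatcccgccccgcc
The match begins 133 bases before the start. TCACNCCAC on either strand lies in 0.983% of promoters of tested genes and in none of 24 promoters of 17 cholesterol synthesis genes. It lies in 7 of 470 promoters (1.49%) of genes called at least 2-fold higher. For genes called at least 2-fold lower it is 4 of 639 (0.626%). Whether these shares differ was not tested.

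Of 17 fatty acid genes tested, 8 rose and 4 fell, with a median of 0.49. The desaturase SCD (chr10:100347124-100364834, plus strand), which makes oleate from stearate, measured 760.1, 683 and 997 CPM in CQWIN against 197, 169 and 203 in DMSO. All 3 CQWIN libraries were more than 3 times the highest DMSO library, and the log2 fold change was 2.10 ± 0.17 with an adjusted p of 5.46e-07. FADS1, which desaturates polyunsaturated fatty acids, rose from 176 ± 15.1 to 444 ± 46.3 CPM (log2 1.33 ± 0.15), FADS2 by 0.68, and ELOVL6, an elongase, by 1.17. The desaturase FADS3 was called lower (log2 −0.45, adjusted p 0.0367), a call kept in 2 of 14 alternatives, and reversed to 0.059 with the GC and length trends removed. The elongases ELOVL1, ELOVL5 and ELOVL7, at 0.16, 0.34 and 0.49, did not pass. The acyl-CoA synthetases ACSL3 and ACSL4 rose by 0.77 and 1.16.

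The enzymes that supply and use cytosolic acetyl-CoA did not move together. ACSS2, which makes it from acetate, was called higher (log2 0.58, adjusted p 0.00626). ACLY, which makes it from citrate, fell from 623 ± 48.0 to 345 ± 97.3 CPM (log2 −0.85 ± 0.18). FASN, fatty acid synthase, measured 165, 139.6 and 185 CPM against 241, 205 and 230.2. Its log2 value of −0.47 passed narrowly (adjusted p 0.0451) and in 2 of 14 alternatives, and it reversed to 0.41 with the GC and length trends removed. ACACA, acetyl-CoA carboxylase, did not pass (log2 0.32, adjusted p 0.193). The count of fatty acid genes called lower dropped from 4 to 1 or 2 in 12 of the 14 alternatives, which include leaving out any 1 of the 6 libraries.

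Among 18 lipid droplet and PPAR target genes, 4 rose and 6 fell, with a median of 0.04. PLIN2, a coat protein of lipid droplets, measured 188, 103 and 128 CPM in CQWIN against 25.9, 19.9 and 25.9 in DMSO (log2 2.54 ± 0.24, adjusted p 2.42e-06). ANGPTL4, a secreted lipase inhibitor, rose by 1.29 and CIDEC, a droplet protein, by 1.59, the latter in 13 alternatives. DGAT2, which makes triglycerides, fell from 13.0 ± 1.17 to 5.48 ± 1.5 CPM (log2 −1.24 ± 0.22). With the GC and length trends removed 1 member was called lower, without DMSO 2 there were 3, and without CQWIN 3 the number called higher was 7.

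Aldo-keto reductases, which reduce aldehydes and ketones, rose in 6 of 10 tested genes with none lower and a median of 0.96. AKR1C1 measured 3993 CPM in CQWIN 1 and 1299 and 1544 in CQWIN 2 and 3, against 801 to 984 in DMSO (log2 1.32 ± 0.30, adjusted p 0.00401). AKR1B10 measured 9142, 3864 and 4308 against 2492 to 2946 (log2 1.05 ± 0.25), in 13 alternatives. In both, CQWIN 1 was at least 2 times the other CQWIN libraries. The AKR1B and AKR1C genes are close paralogs, so reads may have been shared among them. The list count was 2 on the compared groups alone. Without CQWIN 1 the median was 0.47, and 1 member was called lower with the replicate block and with the length trend removed.

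NRF2 target genes did not move one way: of 25 tested, 5 rose and 6 fell, with a median of 0.08. The number called higher was 10 without CQWIN 3, 2 without CQWIN 1 and 1 without DMSO 1 or DMSO 3. TXNRD1, thioredoxin reductase, rose from 852 ± 34.8 to 1632 ± 369 CPM (log2 0.94 ± 0.19, adjusted p 0.00176). HMOX1, haem oxygenase, fell, with 288, 318 and 304 CPM against 433, 528 and 485 (log2 −0.67 ± 0.14, adjusted p 0.00228). OSGIN1 fell by 1.02 on the log2 scale and SRXN1, sulfiredoxin, by 0.69. MT2A, a metal-binding metallothionein, did not differ detectably at 322 ± 95.7 against 323 ± 90.9 CPM (log2 −0.00 ± 0.20, adjusted p 0.988).
A match to TGACNNNGC, the letters read here as the antioxidant response element, is shown in capitals. It lies in the 250 bases before 1 of 2 RefSeq starts of TXNRD1.
TXNRD1 (chr12:104215529-104215778, plus strand, GRCh38.p14, RefSeq): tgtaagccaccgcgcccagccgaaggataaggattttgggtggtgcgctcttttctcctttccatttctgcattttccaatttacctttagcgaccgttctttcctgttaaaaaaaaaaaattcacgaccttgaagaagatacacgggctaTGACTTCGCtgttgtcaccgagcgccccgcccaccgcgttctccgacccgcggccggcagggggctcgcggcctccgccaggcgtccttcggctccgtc
It begins 99 bases before the start. The same letters lie in 14.5% of promoters of tested genes, in 13.2% of those at least 2-fold higher and in 12.4% of those at least 2-fold lower.

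Retinoid genes moved in both directions, with 6 of 14 higher, 5 lower, or 3 without CQWIN 2 and 2 with the GC and length trends removed, and a median of 0.46. DHRS9, a retinol dehydrogenase, measured 24.6, 10.4 and 12.1 CPM against 1.85, 1.60 and 1.59, with CQWIN 1 the highest and all CQWIN libraries above DMSO (log2 3.21 ± 0.34, adjusted p 8.56e-06). RDH11 rose by 1.15 and ALDH1A3, a retinaldehyde dehydrogenase, by 0.99. RDH10 rose by 1.42, with CQWIN 2 at 15.4 CPM close to the DMSO libraries at 13.6 to 15. The retinoic acid receptor RARA fell by 1.09 and CYP26A1, which breaks down retinoic acid, by 1.34, the latter in 10 alternatives.

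Iron handling genes rose in 7 of 12 and fell in 2, with a median of 0.54. CYBRD1, a ferric reductase, rose by 0.80, ACO1, the cytosolic aconitase that doubles as an iron sensor, by 0.64, and FBXL5, an iron-sensing ubiquitin ligase subunit, by 0.93. NCOA4, which delivers ferritin to lysosomes, rose from 92.0 ± 9.14 to 168 ± 42.3 CPM (log2 0.87 ± 0.19). The transferrin receptor TFRC rose by 0.78 in 12 alternatives. The ferritin chains FTH1 and FTL, at log2 0.07 and 0.18, did not pass.

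Cytokine and chemokine genes rose in 13 of 24 and fell in 3, with a median of 0.78, and without CQWIN 2 only 1 was called lower. CXCL8, the neutrophil chemokine interleukin 8, measured 651, 326 and 310.4 CPM in CQWIN against 98.0, 110.0 and 85.5 in DMSO. Each CQWIN library was more than 2 times the highest DMSO library, and the log2 fold change was 2.13 ± 0.25 with an adjusted p of 2.34e-05. CCL2, a monocyte chemokine, measured 71.8, 62.1 and 59.1 CPM against 23.8, 25.5 and 23.6 (log2 1.40 ± 0.15). IL1B measured 10.2, 3.80 and 6.72 CPM against 0.900, 0.481 and 1.30 (log2 2.93 ± 0.39), and the growth factor CSF2 rose by 2.66 from 0.612 ± 0.327 CPM. IL6 measured 1.86, 1.87 and 3.62 CPM against 0.802 to 0.965 (log2 1.46 ± 0.36, adjusted p 0.00627), a call that ended with the GC and length trends removed and passed in 12 alternatives.

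Other members were less even or lower. CCL20, also among the 13, was at 18.3, 3.60 and 5.72 CPM against 2.03 to 3.63, an overlap with CQWIN 1 the highest, and its log2 value of 1.63 passed in 10 alternatives. IL11 fell from 33.2 ± 8.99 to 13.8 ± 8.50 CPM (log2 −1.26 ± 0.29), and CCL5 fell by 1.14 in 11 alternatives. IL24, which is counted among the 13, had no read in any DMSO library and 0.304 to 0.477 CPM in CQWIN, so no fold change is given. With the GC and length trends removed the median of the list was 0.39 and 9 members were higher.
CXCL8 transcription is known to depend on AP-1 and NF-kB sites close to its start. The AP-1 letters TGACTCA and the NF-kB letters GGAATTTCC are in capitals in the 250 bases before its RefSeq start.
CXCL8 (chr4:73740319-73740568, plus strand, GRCh38.p14): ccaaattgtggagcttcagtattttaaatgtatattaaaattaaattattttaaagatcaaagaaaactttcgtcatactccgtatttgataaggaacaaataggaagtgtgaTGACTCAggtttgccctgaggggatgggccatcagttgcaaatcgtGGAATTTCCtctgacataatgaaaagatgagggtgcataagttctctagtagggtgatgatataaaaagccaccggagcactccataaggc
They begin 137 and 91 bases before the start. TGACTCA on either strand lies in 3.69% of promoters of tested genes, in 7.45% of those at least 2-fold higher and in 4.38% of those at least 2-fold lower. GGGACTTTC or GGAATTTCC lies in 0.817%, 1.06% and 0.782% of the same sets.

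Of 18 NF-kB subunit and feedback genes, 1 was higher and 3 were lower, with a median of −0.22. The share lower, 16.7%, was near the 15.8% of all genes tested. Without CQWIN 2 the counts were 3 higher and 1 lower. Once both trends were removed they were 2 higher and 0 lower, with a median of 0.08. The riser was IRAK2, a kinase of the interleukin 1 receptor pathway (log2 1.06 ± 0.22). NFKB2 and RELA fell by 0.95 and 0.60 in 13 and 11 alternatives, and neither passed with the GC and length trends removed. Among 21 AP-1 and immediate early genes, 2 rose, or 5 without CQWIN 2, and 6 fell, with a median of −0.34, or 0.15 with those trends removed. IER3 rose from 85.8 ± 9.05 to 212 ± 17.7 CPM (log2 1.30 ± 0.15). FOSL2 fell by 1.20, MYC by 0.94 and the nuclear receptor NR4A1 by 1.55.

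Of 19 EGF receptor and ERK feedback genes, 6 rose and 2 fell, with a median of 0.21. EREG, epiregulin, measured 88.0, 105 and 141 CPM against 40.3, 41.7 and 39.5 (log2 1.46 ± 0.18, adjusted p 5.25e-05), and TGFA rose from 14.1 ± 2.09 to 29 ± 0.576 CPM (log2 1.04 ± 0.17). AREG, amphiregulin, rose by 0.91 and BTC, betacellulin, by 1.32, each in 13 alternatives. The ligand HBEGF did not pass and had the opposite sign (log2 −0.70, adjusted p 0.0867). DUSP6, a phosphatase induced by ERK, rose by 1.54, whereas DUSP1, a phosphatase of stress kinases, fell by 1.20.

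Of 6 genes of the fibroblast growth factor receptor list, 4 fell and 1 rose, with a median of −1.14. FGFR3 measured 1.92, 0.912 and 2.0 CPM against 10.2, 11.2 and 6.08 (log2 −2.50 ± 0.40, adjusted p 0.000376). FGFR4 measured 20.0, 20.5 and 19.7 against 45.1, 59.7 and 46.1 (log2 −1.33 ± 0.16), and FGFR1 fell by 1.27. No CQWIN library reached the lowest DMSO library in any of these receptors. FGFBP1, a carrier protein that releases fibroblast growth factors, rose in an even manner, at 7.11, 6.79 and 7.05 CPM against 0.85, 1.34 and 0.531 (log2 2.95 ± 0.30, adjusted p 5.75e-06).

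Bone morphogenetic protein (BMP) signalling raises the ID genes and its own inhibitors SMAD6, SMAD7 and BAMBI. Of 16 ID and BMP genes, 9 fell and 1 rose, with a median of −1.07. ID1 measured 353, 219.6 and 205 CPM in CQWIN and 729, 877 and 680.4 in DMSO (log2 −1.56 ± 0.18). ID2 measured 28.8, 25.9 and 17.4 CPM against 116, 137 and 115 (log2 −2.35 ± 0.17, adjusted p 1.36e-07). ID3 measured 216, 229.6 and 142 CPM against 669, 855 and 656 (log2 −1.89 ± 0.18, adjusted p 2.51e-06). In each of the ID genes the CQWIN libraries lay below every DMSO library. SMAD6 fell by 1.71 and BAMBI by 1.17. The 1 riser was GREM1, a secreted BMP antagonist, at 25.3, 38.2 and 27.5 CPM against 4.55, 3.90 and 4.25 (log2 2.84 ± 0.26, adjusted p 1.97e-06).

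Feedback genes of the Wnt pathway, which beta-catenin raises, also fell: 7 of 12 were lower and 1 higher, with a median of −0.88. AXIN2 measured 2.43, 2.08 and 2.57 CPM against 16.1, 12.6 and 10.6 (log2 −2.47 ± 0.32, adjusted p 6.55e-05). The ubiquitin ligases RNF43 and ZNRF3, which remove Wnt receptors, fell by 1.98 and 1.30, and TCF7, a partner of beta-catenin, by 1.18. CTNNB1, beta-catenin itself, was the gene called higher (log2 0.64), in 10 alternatives. The count of members called lower was 6 or 7 in every alternative.

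DNA replication genes fell in 19 of 36, with none higher and a median of −0.45, and 14 to 19 were lower in every alternative. Without CQWIN 3, 2 of them were called higher. The helicase subunit MCM5 measured 56.6, 84.4 and 87.3 CPM against 200.2, 209 and 191 (log2 −1.39 ± 0.17). MCM2 fell by 1.29, the licensing factor CDT1 by 1.42, the polymerase subunit POLD1 by 1.21 and the transcription factor E2F2 by 1.57. Of 30 mitosis genes 6 were called lower and none higher, a share near the 15.8% of all genes tested, among them the kinase PLK1 (log2 −1.14) and the cyclin CCNF (−1.45). Their median was −0.12, and 5 were called higher without CQWIN 3. Once the GC and length trends were removed, 9 were lower and the median was −0.43. TOP2A, topoisomerase 2 alpha, was very uneven, at 31.9, 411 and 293 CPM in CQWIN and 272, 89.0 and 340.1 in DMSO, and did not pass (log2 0.07 ± 0.67, adjusted p 0.951). CDKN1A, the cell cycle inhibitor p21, measured 276 ± 17.4 against 321 ± 44.3 CPM (log2 −0.22, adjusted p 0.288). Of 24 p53 target genes 2 rose, or 7 without CQWIN 3, and 3 fell. The shares as reported, 8.33% higher and 12.5% lower, lay below the 11.6% and 15.8% of all genes tested.

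Matrix and mesenchymal genes fell in 14 of 30 and 1 was higher, with a median of −0.53. The collagen genes COL4A1, COL4A2 and COL5A1 fell by 1.57, 1.38 and 1.64. SPARC, a collagen-binding protein, fell from 11.8 ± 1.94 to 4.40 ± 0.624 CPM (log2 −1.42 ± 0.24), and TGFBI by 1.14. Keratins fell in 6 of 9, or 4 with the GC and length trends removed, and rose in 2, with a median of −0.94. KRT7 measured 956, 2272 and 1473 CPM against 3534, 4262 and 3955 (log2 −1.32 ± 0.23), and KRT80 fell by 1.65. KRT8 and KRT18, which overlap on opposite strands, fell by 0.95 and 0.96. KRT19 rose from 254 ± 42.7 to 435 ± 60.7 CPM (log2 0.78 ± 0.17) and KRT15 by 1.73. The epithelial cadherin CDH1 did not pass (log2 −0.38, adjusted p 0.377).

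Stress pathways gave mixed counts, given here beside the 11.6% higher and 15.8% lower of all genes tested. Differences from these shares were not tested. Of 20 integrated stress response genes 4 rose (20%) and 2 fell (10%). The number called higher was 9 without CQWIN 3, 2 without DMSO 2 and 1 without CQWIN 1, DMSO 1 or DMSO 3. The list was led by DDIT3, the transcription factor CHOP, at 13.9, 8.51 and 5.81 CPM against 2.70, 4.17 and 2.70 (log2 1.56 ± 0.32, adjusted p 0.00194). Of 21 chaperones of the endoplasmic reticulum 3 rose (14.3%) and 4 fell (19.05%), both near the shares of all genes tested. There were 6 higher without CQWIN 3, 2 lower without DMSO 1 or CQWIN 1 and none lower without CQWIN 2. Once the GC and length trends were removed, 1 chaperone was lower. None of 16 cytosolic heat shock genes rose and 7 fell, HSPA1A by 1.42 and its near-identical copy HSPA1B by 1.35, and the cochaperone BAG3 by 0.95. Of these 16, 4 were called lower without DMSO 3 or without any 1 of the CQWIN libraries, and 4 were higher without CQWIN 3. The number lower was also 4 with the GC and length trends removed. Of 16 BCL2 family genes 3 rose (18.75%) and 1 fell (6.25%), with 6 higher without CQWIN 3. BMF, a promoter of cell death, rose by 2.44 and BCL2A1, an inhibitor of cell death, by 1.24, each in 13 alternatives. GDF15, a stress cytokine, rose from 97.6 ± 14 to 196 ± 31.8 CPM (log2 1.00 ± 0.19).

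Amino acid transporters fell in 5 of 14 with none higher, among them SLC7A5 (log2 −1.07) and SLC1A5 (−1.04). Ribosome biogenesis genes fell in 8 of 24 and rose in 1, or in 7 without CQWIN 3, with MYBBP1A at −1.43 and POLR1A, the largest subunit of RNA polymerase I, at −1.19. Glycolysis genes split, with 3 of 22 higher (13.6%) and 5 lower (22.7%), beside 11.6% and 15.8% of all genes tested. ALDOC rose by 2.05 and LDHA by 0.89, whereas PFKFB3 fell by 0.94 and GPI by 0.79. There were 6 higher without CQWIN 3 and 3 lower without DMSO 2, DMSO 3 or CQWIN 1, and 2 lower with the GC and length trends removed. Hypoxia genes rose in 5 of 17 (29.4%), with PDK1 at 1.34, and fell in 2 (11.8%), EGLN1 at −1.17 and ADM at −0.87. Of this list, 8 were higher without CQWIN 3 or with the GC and length trends removed. Prostaglandin genes rose in 3 of 11, among them the synthase PTGES by 0.91, and in 1 without CQWIN 1 or with the GC and length trends removed. The interferon-stimulated list had 4 of 21 members higher (19.05%) and 1 lower (4.76%), with IFIT2 at 1.72, in 13 alternatives. Autophagy and lysosome genes rose in 7 of 25 and fell in 3, with WIPI1 at 1.60 and the protease CTSL at 1.44. The number higher was 3 without CQWIN 1, 12 without CQWIN 2 and 13 without CQWIN 3.

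Some large lists depended on single libraries. Of 78 cytosolic ribosomal protein genes, 14 were called higher and 1 lower, with a median of 0.44, and 70 were higher without CQWIN 3 but none without CQWIN 1 or without DMSO 1. Of 40 nuclear genes of the respiratory chain, 13 were higher and 1 lower, with 30 higher without CQWIN 3 and 2 without CQWIN 1. Of 31 proteasome genes, 7 were higher and 3 lower, with 24 higher without CQWIN 3 and 1 without CQWIN 1. Without DMSO 3 there was 1 ribosomal protein gene called higher, with 4 respiratory chain and 1 proteasome gene, and without DMSO 1 there were 3 respiratory chain and 1 proteasome gene. Without CQWIN 2 there were 11 proteasome genes. Splicing factor genes were lower in 6 of 24 and higher in none, but 10 were higher without CQWIN 3. With the GC and length trends removed, the genes called higher were 8 of the ribosomal proteins, 4 of the respiratory chain and 1 of the proteasome, and 9 splicing factor genes were lower. RPL31 shows the pattern in its 3 CQWIN values of 1746, 1096 and 674 CPM against 601 to 804 in DMSO, an overlap, and its log2 value of 0.80 passed in 9 alternatives.

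**Figure D4:**
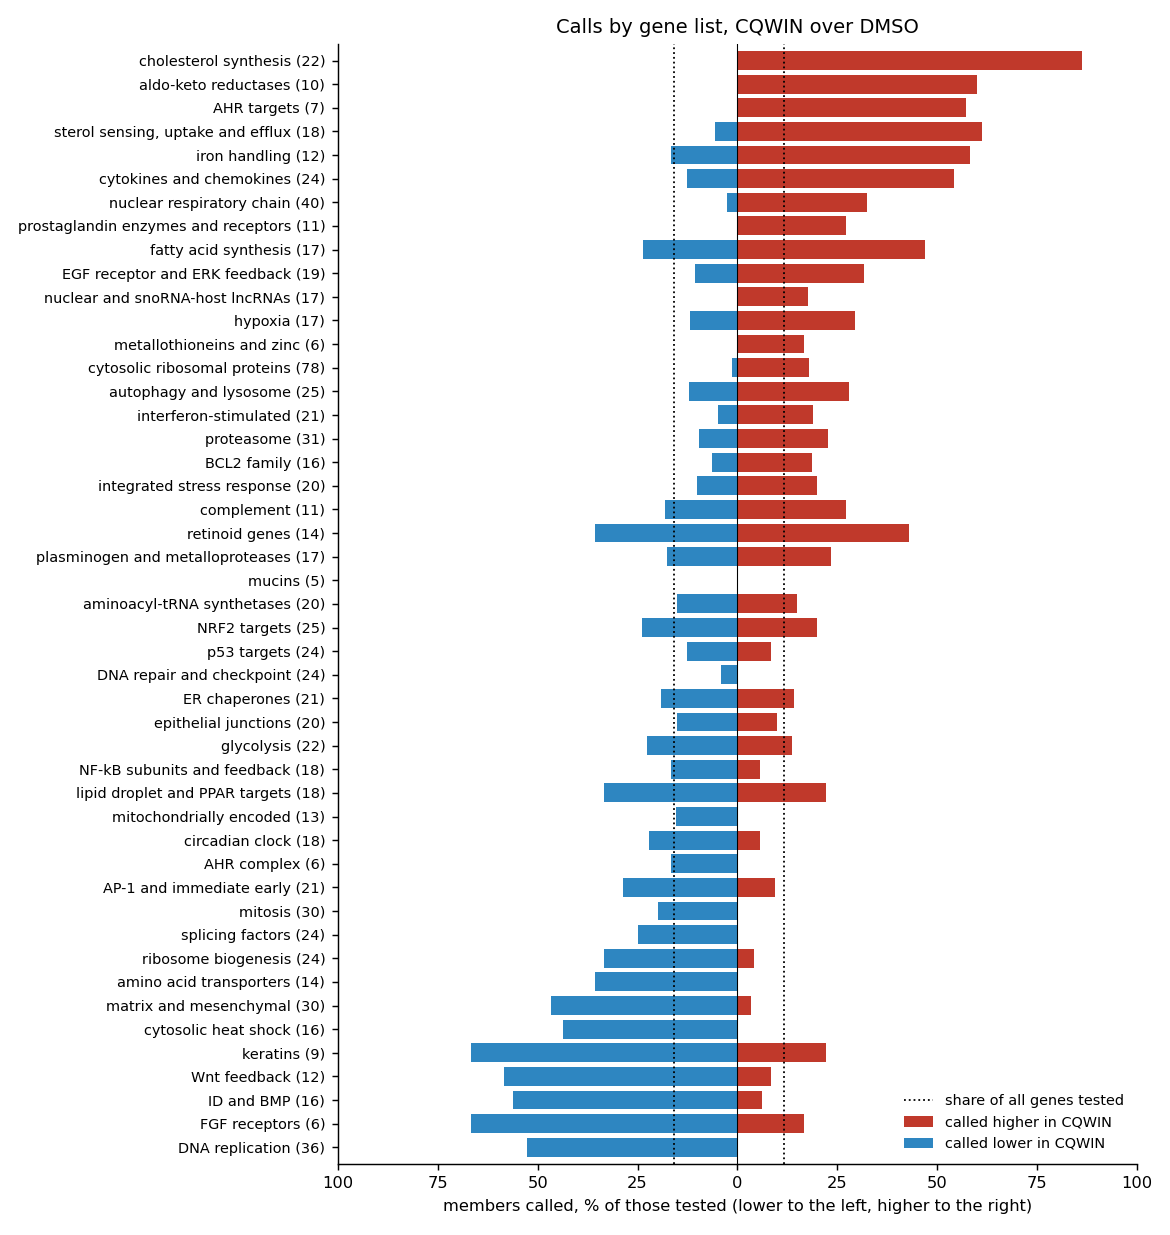
Members called higher (right) and lower (left) in CQWIN over DMSO, as a percentage of the tested members of each list with at least 5 of them (number in brackets). Dotted lines mark the shares over all genes tested, 11.6% higher and 15.8% lower. Cholesterol synthesis stands at the top with 19 of 22 higher, and the Wnt, ID and BMP, and DNA replication lists lie near the bottom.

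Long noncoding RNAs made up 117 of the 1804 higher and 59 of the 2460 lower calls. Whether these counts differ from their share of the genes tested was not tested. The largest rise of at least 5 CPM was that of IGFL2-AS1, at 192, 67.6 and 90.5 CPM against 19.7, 19 and 14.8 (log2 2.71 ± 0.29, adjusted p 1.01e-05). ARHGAP5-AS1 followed at 1.87. LINC02593 fell by 2.0, and AC022613.1 fell evenly, at 23.4, 23.1 and 23.4 CPM against 56.4, 68.7 and 58.1 (log2 −1.39 ± 0.14, adjusted p 4.42e-06). NKILA, a noncoding RNA that interacts with NF-kB, fell by 1.32.

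The other 3 PM2.5 groups were set beside CQWIN to see where its response stood. All 4 comparisons share the DMSO libraries, so their values are only given side by side. CYP1A1 had a log2 fold change over DMSO of 5.05 in CQWIN and of 4.99, 4.63 and 4.46 in CDSUM, CDWIN and CQSUM. SCD had 2.10 in CQWIN and 0.55, 0.89 and 0.81 in the same order of groups. ID3 had −1.89 in CQWIN and −0.42, −0.72 and −0.73. CXCL8 had 2.13 and 2.77, 2.80 and 2.37.

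The difference itself was tested as CQWIN over the mean of CDSUM, CDWIN and CQSUM, a contrast that leaves DMSO out. It called 321 genes, 2.06% of those tested, of which 293 (1.88%) were higher and 28 (0.18%) lower in CQWIN. The median log2 difference over all genes was 0.07. This count was unstable: it was 2161 higher and 1315 lower without CQWIN 1, 23 and 19 without CQWIN 2, and 9 and 2 without CQWIN 3. Leaving out CDSUM 1, 2 or 3 gave 29, 12 or 33 higher and 4, 4 or 8 lower genes. Leaving out CDWIN 1, 2 or 3 gave 491, 192 or 210 higher and 36, 17 or 17 lower genes. Leaving out CQSUM 1, 2 or 3 gave 706, 24 or 16 higher and 70, 4 or 4 lower genes. A core of 6 genes kept the call in all 20 alternatives, namely SCD, MSMO1, SQLE and FADS1 higher and ID2 and ID3 lower. LPIN1, higher, and LIMD2, lower, lost it in 1 alternative, the one without CQWIN 3.

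All 4 of the higher genes of this core act in lipid synthesis. SCD measured 683 to 997 CPM in CQWIN and 256 to 381 in the 9 other PM2.5 libraries, with a median of 309 and no overlap (log2 1.35 ± 0.13, adjusted p 3.88e-05). FADS1 measured 395 to 486 against 213 to 291 CPM (log2 0.88 ± 0.11, adjusted p 0.00131). MSMO1 measured 91.6 to 154 against 37.1 to 89.4 CPM, the groups almost touching (log2 0.97 ± 0.14, adjusted p 0.00468), and SQLE 105 to 115 against 54.8 to 76.1 (log2 0.71 ± 0.10, adjusted p 0.00468). In all, 10 cholesterol synthesis genes, 6 sterol sensing genes and 8 fatty acid genes (0.49 to 1.35), of 22, 18 and 17 tested, were higher in CQWIN and none was lower. Many of these calls were not stable, since single members kept theirs in as few as 7 or 8 of 20 alternatives, and over all genes there were only 9 higher calls without CQWIN 3, 12 without CDSUM 2 and 7 on the compared groups alone.

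The ID genes differed in the other direction. ID3 measured 142 to 229.6 CPM in CQWIN and 393 to 558 in the 9 other PM2.5 libraries, with no overlap (log2 −1.27 ± 0.15, adjusted p 0.00101). ID2 measured 17.4 to 28.8 against 40.5 to 65.1 CPM (log2 −1.08 ± 0.15, adjusted p 0.00244). ID1 and ID4 did not pass, at −0.32 (adjusted p 0.194) and −0.97 (adjusted p 0.111). No AHR target gene passed: CYP1A1 was at 0.35 ± 0.27 (adjusted p 0.433), CYP1B1 at 0.65 ± 0.18 (0.0572) and TIPARP at 0.47 ± 0.15 (0.0771). CXCL8 did not pass either (−0.51 ± 0.20, adjusted p 0.131).

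**Figure D5:**
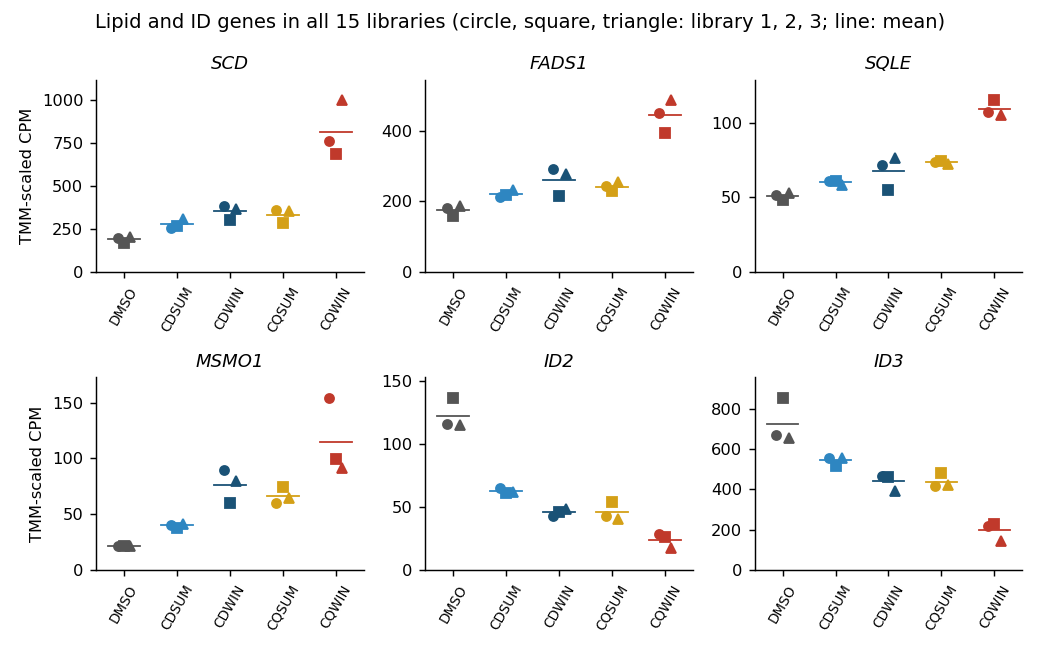
TMM-scaled CPM of 6 genes in all 15 libraries, by group, with a line at each mean of 3. SCD lies at 683 to 997 in CQWIN and at 256 to 381 in the other PM2.5 groups, and ID3 lies at 142 to 229.6 in CQWIN and at 393 to 558 in those groups.

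In the authors' deposited table, 3092 genes were called for CQWIN against DMSO, 1304 higher and 1788 lower, at their adjusted p under 0.05. Of these, 3030 were also called here in the same direction, 1250 higher and 1780 lower.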

How the data were processed

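The authors' deposited table holds raw counts per gene, which all tests used, together with FPKM values and the authors' own log2 fold changes and p-values, used only for the comparison with their calls. The submitters' processing notes name GRCm38 and mm10, mouse builds, but all 58735 identifiers are human Ensembl ones that GENCODE release 29 holds, 58724 of them at identical coordinates (GRCh38). The aligner, counter and strand setting are not given in the sources used here, and the labels name 2 library kits.

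Counts of all 15 libraries were fitted together in edgeR 4.0.16 (R 4.3.3; filterByExpr, TMM, quasi-likelihood test, 10 residual degrees of freedom), with Benjamini-Hochberg adjustment over 15565 genes. A standard error is the log2 fold change divided by the square root of F. The genes removed held 0.0838% of reads. Alternatives were DESeq2 1.42.0 and its size factors, no filter, a 5 CPM filter, the compared groups only, a replicate block, removal of length or GC and length trends (splines with 6 degrees of freedom) and each library left out. The script was tested on simulated data.

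Named were the 12 largest changes per direction (protein coding, at least 5 CPM, no overlap), 4 long noncoding RNAs per direction, up to 4 members per list and direction and a fixed set of genes. Other genes were chosen after their values were seen. Some genes that the rule names are not reported here. The members and the 50 lists were chosen with earlier results of these data known. Reads from genes that overlap another gene cannot be told apart without strand, among them CYP1B1, TIPARP, FADS1, FADS2, STARD4, ID2, ID4, GREM1, SLC16A6, FGFR1, MCM2, COL4A1, COL4A2, SAMD11, DDIT3, SREBF2 and TXNRD1.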

Additional observations from a re-analysis of the deposited data

Results flagged for a closer look

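The response to CQWIN differed from the mean response to CDSUM, CDWIN and CQSUM, in edgeR's quasi-likelihood test of the difference itself, for 293 genes that were higher and 28 that were lower in CQWIN. Values here are log2 differences with CQWIN over the mean of those groups, each with an adjusted p under 0.05, for some of the largest differences and for members of the lipid, ID and BMP lists. Of the 321 calls, 6 were kept in all 20 alternatives and 10 were kept without CQWIN 3.

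Among cholesterol synthesis genes the difference was 0.97 for MSMO1, 0.83 for HMGCS1, 0.79 for IDI1, 0.78 for SC5D, 0.76 for DHCR7, 0.71 for SQLE and 0.64 for both MVK and LSS. Among sterol sensing genes it was 0.96 for STARD4, 0.94 for LPIN1, 0.65 for INSIG1 and 0.58 for SREBF2. Among fatty acid genes it was 1.35 for SCD, 0.88 for FADS1, 0.75 for ELOVL6, 0.74 for FADS2, 0.69 for ACSS2, 0.68 for ACSL3, 0.65 for ACACA and 0.49 for ELOVL5. Calls in these lists were kept in 7 to 20 of the 20 alternatives. Outside these lists, L3MBTL3 was higher by 1.04, FGFBP1 by 1.02 and the aldolase ALDOC by 0.95, kept in 10, 12 and 15 alternatives.

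Lower in CQWIN were ID3 at −1.27, ID2 at −1.08, BCL2A1, an inhibitor of cell death, at −0.94, IL32 at −0.82, LIMD2 and PLPPR3 both at −0.81 and MYL9, a myosin light chain, at −0.78. ID3 and ID2 kept the call in all 20 alternatives and LIMD2 in 19. BCL2A1 and IL32 kept it in 13, MYL9 in 11 and PLPPR3 in 7. Over DMSO, by contrast, BCL2A1 was called higher in CQWIN (log2 1.24, adjusted p 0.00122), in 13 of 14 alternatives.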

How the results depend on the processing

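For CQWIN over DMSO, the fit on the compared groups only called 800 genes higher and 1449 lower. With the GC and length trends removed 1125 genes were lower, and 866 of the 2460 lower calls as reported were kept. Leaving out 1 library gave 864 to 3866 higher and 1246 to 2236 lower genes. Against the mean of the other PM2.5 groups, higher and lower counts were 110 and 13 with the size factors of DESeq2, 629 and 160 with DESeq2, 1171 and 690 with no filter on low counts, 7 and 4 on the compared groups only, 25 and 7 with the length trend removed and 37 and 14 with the GC and length trends removed. Leaving out 1 library gave 9 to 2161 higher and 2 to 1315 lower there. With the GC and length trends removed the log2 fold change over DMSO reversed to 0.41 for FASN, 0.059 for FADS3, 0.080 for PFKL, 0.10 for ABCA3, −0.14 for PSMA3, −0.10 for SNHG6 and −0.028 for GAS5. The causes were not tested.

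With the replicate number as a block (replicate block), 1894 genes were higher and 2648 lower over DMSO, and 945 and 229 against the other PM2.5 groups. Same-numbered CQWIN and DMSO libraries had correlations of deviations of −0.238, −0.116 and 0.164, so the numbers were not taken as pairs.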
